A study of Mus musculus with 12 samples.

Results

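Described here are 10 genes whose RNA differed in opposite directions in the 2 comparisons of thymic regulatory T cells (Treg) that the series holds: Il7r, Lta, Slamf6, Sema4f, Igfbp4, Zbtb16, Chn2, Nrgn, Klhdc2 and Phldb1. They were taken from 13207 genes in the deposited data and were selected on their measured values in both comparisons. Their levels, differences and directions are therefore given as a description, with no test. The rule set no minimum size. C57BL/6 mice received 10 µg of tamoxifen per g of body weight by intraperitoneal injection, and CD4+ thymocytes were sorted 7 days later into 4 groups of 3 libraries, named by the letters A, B and D. CD73+ newly generated Treg were positive for tdTomato, green fluorescent protein (GFP) and CD73, the ectoenzyme encoded by Nt5e, and CD73– newly generated Treg were positive for tdTomato and GFP without CD73. Newly generated conventional T cells (Tconv) carried tdTomato but neither GFP nor CD73, and tdTomato– Treg, called bulk Treg in the series, carried GFP without tdTomato and were not divided by CD73. All groups share the strain, the tamoxifen and the interval. The promoter behind the tamoxifen-induced label, the reporter alleles and the age of the mice are not given in the sources used here, nor is whether the libraries of a group came from separate mice, so errors and p-values measure a spread between libraries that may be partly technical.

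The first comparison is CD73+ minus CD73– newly generated Treg, and the second is tdTomato– Treg minus Tconv. Levels are log2 CPM, the log2 of read counts scaled to a common library size, and a difference of 1 on this scale is a doubling. The comparisons share no library, and each lies within a table of 6 libraries that the authors scaled on its own, so levels from different tables are set side by side without a test.

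Treg mature in the thymus from CD4 single-positive thymocytes that receive strong antigen receptor signals and then respond to cytokines that share the common gamma chain. Interleukin-7 receptor (Il7r) marks T cells that can take up survival signals and is generally kept low on Treg, while lymphotoxin (Lta) and SLAM family receptors (Slamf6) belong to contacts between lymphocytes. Zbtb16 encodes PLZF, the factor known for directing innate-like T cells such as NKT cells. The other members act at the cell surface (Sema4f), outside the cell (Igfbp4), beneath the membrane (Chn2, Nrgn), in protein degradation (Klhdc2) and at the cell cortex (Phldb1).

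Promoter windows from RefSeq on GRCm38.p6, from 250 bases before to 50 bases after each annotated start, were matched for 9 of the 10 genes, with 12 windows in all because Chn2 has several starts; Zbtb16 was not matched. The windows of 3 genes are shown because they hold matches to motifs of factors that act in T cells, as do windows of Chn2: Il7r at chr15:9529827-9530126 on the minus strand, Lta at chr17:35205302-35205601 on the minus strand and Phldb1 at chr9:44735149-44735448 on the minus strand. They read 5′ to 3′ in lower case, with motif matches on either strand in capitals.
Il7r: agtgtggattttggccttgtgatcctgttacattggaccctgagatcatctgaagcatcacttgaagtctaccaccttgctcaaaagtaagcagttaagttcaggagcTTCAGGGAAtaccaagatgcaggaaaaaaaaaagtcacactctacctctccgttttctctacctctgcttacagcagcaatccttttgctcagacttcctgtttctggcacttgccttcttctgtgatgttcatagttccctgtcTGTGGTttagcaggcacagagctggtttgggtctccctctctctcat
Lta: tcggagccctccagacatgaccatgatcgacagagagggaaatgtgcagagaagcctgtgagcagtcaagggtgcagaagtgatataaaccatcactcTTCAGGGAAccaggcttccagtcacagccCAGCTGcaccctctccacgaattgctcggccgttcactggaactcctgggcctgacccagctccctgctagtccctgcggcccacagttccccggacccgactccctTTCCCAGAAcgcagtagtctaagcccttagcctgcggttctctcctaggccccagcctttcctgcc
Phldb1: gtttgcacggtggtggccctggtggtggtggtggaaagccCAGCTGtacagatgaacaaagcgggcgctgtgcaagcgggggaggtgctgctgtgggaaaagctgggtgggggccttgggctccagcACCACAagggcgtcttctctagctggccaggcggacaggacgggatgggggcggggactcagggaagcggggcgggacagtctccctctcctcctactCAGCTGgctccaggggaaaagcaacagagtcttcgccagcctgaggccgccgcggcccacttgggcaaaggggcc
Capitals mark the STAT motif TTCNNNGAA, the RUNX motif TGTGGT and the E-box CAGCTG. With the first transcribed base as position 1 and the base before it as −1, Il7r had a STAT match from −142 and a RUNX match from 4. Lta had STAT matches from −152 and −16 and an E-box from −123. The STAT match of Il7r and that of Lta at −152 have the same letters, TTCAGGGAA, although the genes have opposite patterns. Phldb1 had E-boxes from −210 and −25 and a RUNX match, on the other strand, from −123. Matches of different motifs shared no bases in these windows. The STAT letters occurred in 2 of the 12 member windows and in 8.30% of 32851 promoter windows of the same length. RUNX letters occurred in 2 windows against 16.8%, and E-box letters in 4 windows of 3 genes, the others being windows of Chn2, against 16.3%. The forkhead motif GTAAACA (3.65% of all windows), the TCF/LEF motif ATCAAAG (3.73%) and the NF-kB motif (1.63%) had no match in the 12 windows. Base composition ranged widely: the Il7r window had 45.7% GC and 1 CpG and the Igfbp4 window 71.3% GC and 27 CpG, beside medians of 52.7% and 7 over all windows.

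Foxp3 RNA separated the Treg groups from Tconv, and Nt5e RNA was higher in CD73+ than in CD73– newly generated Treg but present in both. Foxp3, the Treg lineage factor, was at 9.19 ± 0.07 log2 CPM (SD, n = 3) in CD73+ Treg, 9.16 ± 0.05 in CD73– Treg and 9.11 ± 0.05 in tdTomato– Treg, but at 0.18 ± 0.85 in Tconv. Nt5e was at 7.29 ± 0.14 in CD73+ Treg, 5.54 ± 0.17 in CD73– Treg, 8.21 ± 0.03 in tdTomato– Treg and 3.88 ± 0.17 in Tconv, and Cd4 lay between 8.42 and 9.28 in the 4 groups. Libraries held an effective 11000000 to 21400000 counts. For a gene without counts, 3 counts are the upper limit, at −2.61 to −1.65 log2 CPM depending on the library. It allows for counting error alone, as no molecular identifiers separate copies of a molecule. Library B of CD73– Treg stood apart from its group in the summed markers of CD8 and double-positive thymocytes, at 136 CPM beside 72.3 and 66.0 in libraries A and D. As these are bulk samples, fewer cells that express a gene and less RNA per cell cannot be told apart.

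Opposite signs alone were common: 4701 of 11167 genes tested in both comparisons had them, or 42.1%. In the first comparison 200 of 11170 genes were higher in CD73+ Treg past the threshold, a limma p adjusted by the Benjamini-Hochberg method under 0.05, which is 1.79%, and 73 were lower, which is 0.654%. With each library shifted to the median of its table, these became 164 higher and 99 lower, and with the letter as a replicate block 371 and 259. In the second comparison 2956 of 11198 genes were higher in tdTomato– Treg, which is 26.4%, and 2878 were lower, which is 25.7%. The median shift gave 2625 higher and 3386 lower, and quantile normalisation gave 2501 and 3539. Of the 228 genes past the threshold in both, 200 had the same sign and 28 had opposite signs, 0.251% of the genes tested in both. With the replicate block 103 genes were opposed in this way. The 10 listed genes are among those 28, but they were selected on the same 2 contrasts, so nothing is read from this. In the authors' deposited table, 4 of the 10 had a false discovery rate under 0.05 in the first comparison, beside 1.19% of all genes, and 10 in the second, beside 50.6%. Those 4 were Chn2, Il7r, Klhdc2 and Igfbp4. The authors' rate in the first comparison was 0.051 for Slamf6, 0.052 for Zbtb16, 0.063 for Lta, 0.086 for Nrgn, 0.164 for Sema4f and 0.223 for Phldb1. Nothing is read from these counts either, for the same reason.

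The groups of all 10 genes did not overlap in either comparison. This held for 18.2% of genes in the first, for 60.9% in the second and, with opposite signs, for 355 genes, or 3.18%. The 10 genes were selected on these contrasts, so nothing is read from their count beside these shares. Of the 10, 8 were higher in CD73+ Treg than in CD73– Treg and lower in tdTomato– Treg than in Tconv. Lta and Slamf6 had the reverse. Groups that do not overlap fix the sign within each of the 3 letters, so that every gene kept it there adds nothing. The order of the 4 group means, set side by side across tables, took several forms. Zbtb16, Nrgn and Chn2 were lowest in CD73– Treg, then tdTomato– Treg, CD73+ Treg and Tconv. Phldb1, Sema4f, Il7r, Klhdc2 and Igfbp4 went from CD73– Treg through CD73+ Treg and tdTomato– Treg to Tconv. Lta ran from Tconv through tdTomato– and CD73+ Treg to CD73– Treg, and Slamf6 from Tconv through CD73+ and CD73– Treg to tdTomato– Treg. In all 10, Tconv lay beyond CD73+ Treg on the side away from CD73– Treg, so that CD73– Treg and not CD73+ Treg stood farther from Tconv. That position was shared by 333 of the 355 opposed genes without overlap, or 93.8%, and is therefore near the background. Over the genes tested in both comparisons, the median difference of group means was 0.01 log2 for tdTomato– minus CD73+ Treg. It was 0.03 for Tconv minus CD73– Treg and 0.02 for Tconv minus CD73+ Treg. For tdTomato– minus CD73– Treg it was not computed.

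**Figure D1:**
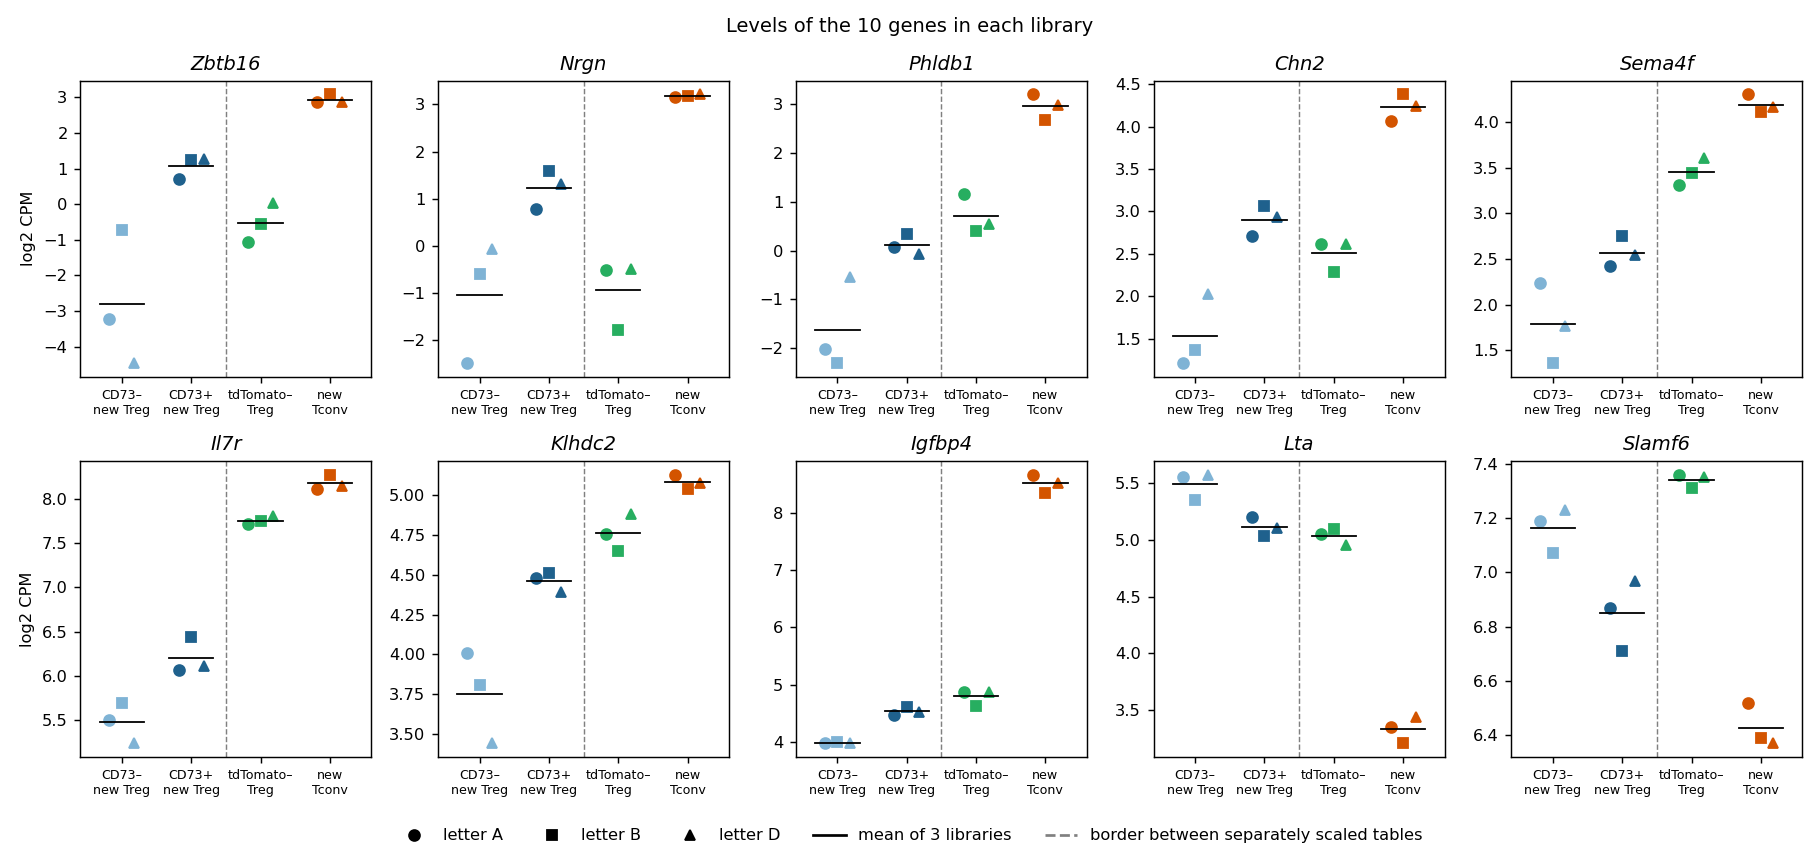
Log2 CPM of each of the 10 genes in each library (points, shaped by letter) for the 4 groups on the x axis, with the mean of 3 libraries as a line and a dashed border between the separately scaled tables. Tconv is the highest group for 8 genes and the lowest for Lta and Slamf6, and CD73– Treg is the lowest for the same 8.

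Il7r encodes the alpha chain of the interleukin-7 receptor. Its level was 6.07, 6.44 and 6.11 log2 CPM in libraries A, B and D of CD73+ Treg and 5.50, 5.70 and 5.24 in CD73– Treg. In tdTomato– Treg it was 7.71, 7.75 and 7.80, and in Tconv it was 8.11, 8.27 and 8.14. Each CD73+ library lay above each CD73– library, and each Tconv library above each tdTomato– Treg library, by gaps of at least 0.37 and 0.31. The difference was 0.73 (SE 0.10), a 1.65-fold higher level in CD73+ Treg, and −0.42 (SE 0.10), a 1.34-fold higher level in Tconv. The larger step lay between the tables: tdTomato– Treg stood 1.55 log2 above CD73+ Treg, a value set across separately scaled tables. Il7r has its gene at chr15:9505788-9530176 on mm10 (GENCODE vM21), minus strand, with no overlapping gene.

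Interleukin-7 signalling was represented by 19 tested genes: the common gamma chain, the JAK and STAT5 genes, SOCS inhibitors, survival genes and regulators of Il7r. None passed the threshold in the first comparison by limma, with or without the letter as a replicate block, as 2.44% of all genes did without it, and 4 had an unadjusted p under 0.05. Their median difference was 0.00 beside 0.01 over all genes. In the second, 11 were higher and 6 lower in tdTomato– Treg, with a median of 0.37 beside −0.01 over all genes. The feedback inhibitors Cish (3.57, SE 0.09, adjusted p = 3.7e-15) and Socs3 (2.07, SE 0.11, adjusted p = 8.2e-11) were higher in tdTomato– Treg. Both are also induced by other cytokines. Foxp1 (−0.51, SE 0.05, adjusted p = 3e-07) and Ets1 (−0.50, SE 0.05, adjusted p = 7.5e-08), transcription factors of resting T cells, were higher in Tconv, as Il7r was.

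Lta encodes lymphotoxin alpha, a secreted TNF family cytokine that also pairs with lymphotoxin beta on the cell surface. It was at 5.20, 5.03 and 5.10 log2 CPM in CD73+ Treg and at 5.55, 5.35 and 5.57 in CD73– Treg. It was at 5.05, 5.09 and 4.95 in tdTomato– Treg and at 3.35, 3.21 and 3.44 in Tconv. The newly generated Treg groups were separated by a gap of 0.15 only, whereas the Treg of the second table stood at least 1.51 above Tconv; the ranges of tdTomato– and CD73+ Treg overlapped. The difference was −0.38 (SE 0.09), 1.30-fold higher in CD73– Treg, and 1.70 (SE 0.09), 3.24-fold higher in tdTomato– Treg than in Tconv. Lta lies at chr17:35203165-35205351, minus strand, 1158 bp from Tnf, which differed by −0.06 (SE 0.26, adjusted p = 0.93) and 0.56 (SE 0.26, adjusted p = 0.086).

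Among receptors and signalling genes of lymphotoxin and TNF, 16 of 18 listed genes were tested. None passed the threshold between CD73+ and CD73– Treg by limma, with 2 at an unadjusted p under 0.05; with the replicate block 1 did, Tnfrsf1b (0.23, adjusted p = 0.018). In the second comparison 11 were higher and 3 lower in tdTomato– Treg, with a median of 0.56. Tnfrsf1b, the TNF receptor that Treg carry (2.36, SE 0.07, adjusted p = 2.2e-14), and Nfkb2, a subunit of the alternative NF-kB pathway (1.42, SE 0.07, adjusted p = 2.4e-11), were higher, in the direction of Lta. Tnfrsf1a, the widely expressed TNF receptor, was lower (−0.83, SE 0.14, adjusted p = 9.8e-05), as was Map3k14, the kinase NIK (−0.37, SE 0.09, adjusted p = 0.0019), whose call was lost when letter D was left out (adjusted p = 0.067).

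Slamf6 encodes a self-binding receptor of the SLAM family, which signals through the adaptor SAP between lymphocytes and is needed for the development of innate-like T cells. Its level was 6.87, 6.71 and 6.97 log2 CPM in CD73+ Treg and 7.19, 7.07 and 7.23 in CD73– Treg. It was 7.36, 7.31 and 7.35 in tdTomato– Treg and 6.52, 6.39 and 6.37 in Tconv. Tconv libraries were the lowest, and CD73+ library D and CD73– library B came within 0.10 of each other. The difference was −0.31 (SE 0.07), 1.24-fold higher in CD73– Treg, and 0.91 (SE 0.07), 1.88-fold higher in tdTomato– Treg. The first of these is the smallest in size among the 10 genes in that comparison. The gene lies at chr1:171917515-171953170, plus strand, and shares exon sequence with the antisense gene Gm37065; whether counting used the strand is not stated, so reads of the pair cannot be told apart.

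Of its relatives and signalling partners, 10 of 15 listed genes were tested, and none passed the threshold in the first comparison by limma, with 1 at an unadjusted p under 0.05; with the replicate block 1 was lower, Cd84 (−0.18, adjusted p = 0.046), a SLAM family gene named after its values were seen. In the second, 5 were higher and 3 lower in tdTomato– Treg. The SLAM family genes Slamf1 (1.21, SE 0.06, adjusted p = 2e-11) and Cd48 (0.66, SE 0.08, adjusted p = 5e-06) were higher, like Slamf6. The phosphatase gene Ptpn6 (−0.83, SE 0.07, adjusted p = 3.3e-08) and the kinase gene Fyn (−0.49, SE 0.05, adjusted p = 1.1e-06), both of which act downstream of SLAM receptors, were lower.

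Sema4f encodes a transmembrane semaphorin, a family of guidance proteins that bind plexins and neuropilins. It was at 2.42, 2.75 and 2.54 log2 CPM in CD73+ Treg and at 2.24, 1.36 and 1.77 in CD73– Treg. It was at 3.31, 3.44 and 3.60 in tdTomato– Treg and at 4.30, 4.11 and 4.16 in Tconv. The newly generated groups approached each other most closely at letter A, where the difference was 0.18 against 1.39 for letter B and 0.77 for letter D. The fitted difference was 0.78 (SE 0.19), 1.72-fold, and −0.74 (SE 0.19), 1.67-fold higher in Tconv. Sema4f lies at chr6:82911885-82939769 on the minus strand with no overlapping gene.

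Of 18 listed semaphorins, their receptors and response genes 15 were tested, and 3 were higher in CD73+ Treg and none lower by limma, with 4 at an unadjusted p under 0.05. No semaphorin or plexin gene was among the 3. Nrp1, a semaphorin co-receptor known as a marker of thymic Treg, was higher (0.65, SE 0.10, adjusted p = 0.0029), as was Crmp1, a semaphorin response protein (1.30, SE 0.19, adjusted p = 0.0016). The third was Cd72, named after its values were seen, which encodes a receptor for the semaphorin CD100 (0.67, SE 0.16, adjusted p = 0.032). The Nrp1 call held in every alternative, that of Crmp1 was lost in a fit of the 6 libraries alone (adjusted p = 0.069), and that of Cd72 was lost in 10 of 21 alternatives. Unlike Sema4f, all 3 were also higher in tdTomato– Treg than in Tconv: Nrp1 by 5.37 (adjusted p = 2e-16), Cd72 by 2.87 (adjusted p = 1.1e-10) and Crmp1 by 2.65 (adjusted p = 3.7e-09). In that comparison 10 of the 15 were higher, among them the plexin gene Plxnc1 (1.75, SE 0.09, adjusted p = 4.6e-11), and 3 were lower, with Sema4a (−3.10, SE 0.19, adjusted p = 5e-10) and Plxnd1 (−0.64, SE 0.09, adjusted p = 1.8e-05) named.

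Igfbp4 encodes a secreted protein that binds insulin-like growth factors and limits their signalling. Its level was 4.48, 4.61 and 4.53 log2 CPM in CD73+ Treg and 3.98, 4.0 and 3.98 in CD73– Treg. It was 4.88, 4.64 and 4.88 in tdTomato– Treg and 8.66, 8.35 and 8.52 in Tconv. All 9 Treg libraries lay below 5, far from the 3 Tconv libraries, and CD73– libraries were nearly equal. The difference was 0.55 (SE 0.09), 1.47-fold, and −3.71 (SE 0.09), 13.1-fold higher in Tconv. Igfbp4 thus paired a modest first difference with the second largest of the second comparison among the 10 genes, after Nrgn. It lies at chr11:99041244-99054392, plus strand, with no overlapping gene.

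Of 19 listed genes of the insulin-like growth factor system, 5 were tested. Igf1r, the type 1 receptor, was higher in CD73+ Treg (0.25, SE 0.05, adjusted p = 0.016). That call was lost without an intensity trend, without library B of CD73+ Treg, without library D of CD73– Treg and without letter D, with adjusted p from 0.0036 to 0.18 over the alternatives. Igf1r was also higher in tdTomato– Treg (2.62, SE 0.05, adjusted p = 2e-16), as was Igf2r, a scavenging receptor (0.94, SE 0.04, adjusted p = 1.6e-11). Of the 5, 3 were higher in the second comparison and none was lower, the opposite of Igfbp4.

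Zbtb16 was at 0.71, 1.24 and 1.27 log2 CPM in CD73+ Treg and at −3.23, −0.72 and −4.46 in CD73– Treg. It was at −1.07, −0.56 and 0.03 in tdTomato– Treg and at 2.87, 3.08 and 2.86 in Tconv. CD73– libraries A and D were under the limit that 3 counts set, library B was not, and the range of CD73– Treg overlapped that of tdTomato– Treg. The levels correspond to about 25, 36 and 39 counts in CD73+ Treg, 1, 10 and 0 in CD73– Treg, 6, 10 and 16 in tdTomato– Treg and 128, 181 and 130 in Tconv. The fitted difference was 3.88 (SE 0.66) and −3.47 (SE 0.66). The SE rests on a spread shared over the 4 groups. The SD was 0.32 in CD73+ Treg, 1.91 in CD73– Treg, 0.55 in tdTomato– Treg and 0.12 in Tconv, so the first difference is less certain than its SE shows. Since the fitted value depends on the offset given to libraries without counts, the summed counts are given too: 100 against 11 counts, an 8.13-fold higher level in CD73+ Treg after division by depth, and 438 against 32, a 10.9-fold higher level in Tconv than in tdTomato– Treg. Without library B of CD73– Treg the first difference was 4.92, and without library D it was 3.05. Zbtb16 lies at chr9:48654297-48836222, minus strand, with no overlapping gene.

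Regulators and companions of PLZF were set beside it: 21 of 22 listed genes were tested and none passed in the first comparison by limma, although 12 had an unadjusted p under 0.05, with a median of 0.04. With the replicate block, which uses the pairing of these libraries by letter, 1 was higher, Runx3 (0.50, adjusted p = 0.018), and 1 lower, Runx1 (−0.17, adjusted p = 0.048), both named after their values were seen. In the second, 10 were higher and 6 lower in tdTomato– Treg, with a median of 0.12. Rora, a nuclear receptor of tissue and innate-like lymphocytes (2.22, SE 0.06, adjusted p = 7.8e-15), and Icos, a costimulatory receptor (1.39, SE 0.06, adjusted p = 1.8e-12), were higher. Id2, an inhibitor of E proteins (−1.49, SE 0.11, adjusted p = 9.8e-09), and Zbtb7b, which encodes the CD4 lineage factor ThPOK (−0.76, SE 0.06, adjusted p = 6.7e-09), were lower, in the direction of Zbtb16.

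Markers of innate-like T and NK cells moved with the groups as well. Of 19 listed genes 10 were tested. By limma 2 were higher and none lower in CD73+ Treg, namely Ccl5 (3.42, SE 0.56, adjusted p = 0.0035) and Nkg7 (1.68, SE 0.26, adjusted p = 0.0027). Ccl5 averaged −2.51 (SD 1.52) in CD73– Treg, below the limit of 3 counts there (−2.30 to −1.65), and 0.91 (SD 0.18) in CD73+ Treg. Its first difference is therefore less certain than its SE shows. In the second comparison 8 of the 10 tested were higher in tdTomato– Treg and none was lower, the opposite of Zbtb16. Among listed genes too low to be tested, directions were mixed. Klrb1c (mean −0.72 in tdTomato– Treg and −0.11 in Tconv), Klrk1 (−0.55 and −0.11) and Klrd1 (−2.29 and −0.85) were lower, as Zbtb16 was. Fcer1g (−0.97 and −1.34) and Tyrobp (−1.13 and −1.33) were higher. The summed level of the list was 667 to 749 CPM in CD73+ Treg, 620 to 635 in CD73– Treg, 755 to 822 in tdTomato– Treg and 79.4 to 89.0 in Tconv, most of it Il2rb, which Treg also express. Klrb1a was at or under the limit of 3 counts in every library of CD73+ and of CD73– Treg, as was Fcer1g in CD73– Treg. The part of such cells in the Zbtb16 values was not tested.

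Chn2 encodes beta-chimaerin, which binds diacylglycerol and switches off the small GTPase Rac. It was at 2.71, 3.06 and 2.93 log2 CPM in CD73+ Treg and at 1.21, 1.36 and 2.02 in CD73– Treg. It was at 2.62, 2.29 and 2.61 in tdTomato– Treg and at 4.07, 4.38 and 4.24 in Tconv. Library D of CD73– Treg was the highest of its group and still 0.69 below the lowest CD73+ library. The difference was 1.37 (SE 0.20), 2.58-fold, and −1.72 (SE 0.20), 3.30-fold higher in Tconv. Chn2 lies at chr6:54039554-54301810, plus strand, and shares exon sequence with 2 genes on the other strand, Gm15527 and 9130019P16Rik, for which no value was used here.

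Rac activators and diacylglycerol signalling genes were tested for 15 of 18 listed genes, with 1 higher and none lower in CD73+ Treg by limma and 4 at an unadjusted p under 0.05. The gene that passed was Tiam1, a Rac activator (0.81, SE 0.07, adjusted p = 4.8e-06), in every alternative. With the replicate block 2 were lower as well, Dock2 (−0.14, adjusted p = 0.033) and Rasgrp1 (−0.13, adjusted p = 0.049). Tiam1 was also higher in tdTomato– Treg (2.47, SE 0.07, adjusted p = 1.7e-14), where Chn2 was lower. Of the 15, 6 were higher and 4 lower in the second comparison. Vav2, another Rac activator, was higher (2.41, SE 0.08, adjusted p = 8.2e-14), and Rasgrp1 (−0.52, SE 0.04, adjusted p = 4.9e-08) and Prkcq (−0.35, SE 0.04, adjusted p = 4e-06), both diacylglycerol effectors of the T cell receptor, were lower.

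Nrgn encodes neurogranin, a small protein that binds calmodulin and is best known from neurons. Its level was 0.77, 1.59 and 1.31 log2 CPM in CD73+ Treg and −2.49, −0.59 and −0.07 in CD73– Treg. It was −0.52, −1.78 and −0.49 in tdTomato– Treg and 3.15, 3.18 and 3.21 in Tconv. Tconv libraries were tightly grouped at the top, and the ranges of CD73– and tdTomato– Treg overlapped. The levels correspond to about 26, 46 and 40 counts in CD73+ Treg, 2, 11 and 10 in CD73– Treg, 9, 4 and 11 in tdTomato– Treg and 155, 194 and 166 in Tconv. The fitted difference was 2.27 (SE 0.51) and −4.11 (SE 0.51), the largest of the 10 in the second comparison. As the SE shares its spread over the 4 groups, it is too narrow for the first difference. The SD was 0.42 in CD73+ Treg, 1.27 in CD73– Treg, 0.74 in tdTomato– Treg and 0.03 in Tconv. From summed counts the level was 4.36-fold higher in CD73+ than in CD73– Treg and 17.0-fold higher in Tconv than in tdTomato– Treg. Without library A of CD73– Treg the first difference was 1.55. Nrgn lies at chr9:37544492-37552904, minus strand, with no overlapping gene.

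Calmodulin, its kinases, calcineurin and protein kinase C genes gave 17 tested of 20 listed. None passed in the first comparison by limma, with 4 at an unadjusted p under 0.05; with the replicate block Camk1d was lower (−0.22, adjusted p = 0.048). In the second 3 were higher and 9 lower in tdTomato– Treg, with a median of −0.21 beside −0.01 over all genes. Camkk2, an upstream kinase of this cascade (−0.96, SE 0.08, adjusted p = 2.2e-08), and Camk1d, a kinase it can activate (−0.92, SE 0.07, adjusted p = 4.2e-09), were lower, as Nrgn was. Prkca (0.90, SE 0.05, adjusted p = 6.6e-11) and Camk2d (0.87, SE 0.07, adjusted p = 1.7e-08) were higher.

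Klhdc2 encodes a substrate receptor of a cullin ubiquitin ligase that recognises proteins by their C-terminal ends. It was at 4.48, 4.51 and 4.39 log2 CPM in CD73+ Treg and at 4.01, 3.81 and 3.44 in CD73– Treg. It was at 4.76, 4.65 and 4.88 in tdTomato– Treg and at 5.13, 5.04 and 5.08 in Tconv. The groups of the second comparison came within 0.16 of each other. The difference was 0.71 (SE 0.12), 1.63-fold, and −0.32 (SE 0.12), 1.25-fold higher in Tconv, the smallest in size of the 10 in that comparison. Klhdc2 lies at chr12:69296681-69310687, plus strand, and shares exon sequence with Nemf on the other strand, which differed by 0.01 (SE 0.06) in each comparison.

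Cullin ligase components and receptors were tested for all 19 listed genes. None passed in the first comparison by limma, with or without the replicate block, and 2 were at an unadjusted p under 0.05. In the second none was higher and 9 were lower in tdTomato– Treg, with a median of −0.19, the direction of Klhdc2. They included its closest relative and neighbour Klhdc1 (−0.98, SE 0.14, adjusted p = 1.7e-05), 12049 bp away, which differed by 0.22 (SE 0.14, adjusted p = 0.44) in the first comparison. The substrate receptor gene Zyg11b was lower too (−0.37, SE 0.05, adjusted p = 1.7e-05).

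Phldb1 encodes a pleckstrin homology domain protein of the cell cortex, related to proteins that anchor microtubules. It was at 0.08, 0.34 and −0.08 log2 CPM in CD73+ Treg and at −2.01, −2.31 and −0.55 in CD73– Treg. It was at 1.16, 0.41 and 0.54 in tdTomato– Treg and at 3.20, 2.68 and 2.99 in Tconv. CD73– Treg was lowest, with 3, 3 and 7 counts beside 16, 19 and 15 in CD73+ Treg. Libraries A and B of CD73– Treg were at or under the limit that 3 counts set. The fitted difference was 1.74 (SE 0.41) and −2.25 (SE 0.41). The SD was 0.21 in CD73+ Treg, 0.94 in CD73– Treg, 0.40 in tdTomato– Treg and 0.26 in Tconv. As the SE shares its spread over the 4 groups, the first difference is less certain than its SE shows. From summed counts the level was 3.44-fold higher in CD73+ than in CD73– Treg and 4.79-fold higher in Tconv than in tdTomato– Treg. Within letters the first difference was 2.09 for A, 2.65 for B and 0.47 for D. When letter D was left out it was 2.37. Without library A, B or D of CD73– Treg it was 1.54, 1.39 and 2.27. Phldb1 lies at chr9:44686304-44735198, minus strand, and shares exon sequence with Treh and Gm47239, for which no value was used here.

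Cortical scaffold and phosphoinositide signalling genes were tested for 14 of 18 listed, with none past the threshold in the first comparison by limma, with or without the replicate block, and 2 at an unadjusted p under 0.05. In the second, 3 were higher and 5 lower in tdTomato– Treg, with a median of −0.07. Ppfibp1, a liprin scaffold, was higher (0.88, SE 0.17, adjusted p = 0.00032). Pik3cd, which encodes a catalytic subunit of phosphoinositide kinase in lymphocytes, was lower (−0.39, SE 0.07, adjusted p = 0.00013), as Phldb1 was.

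**Figure D2:**
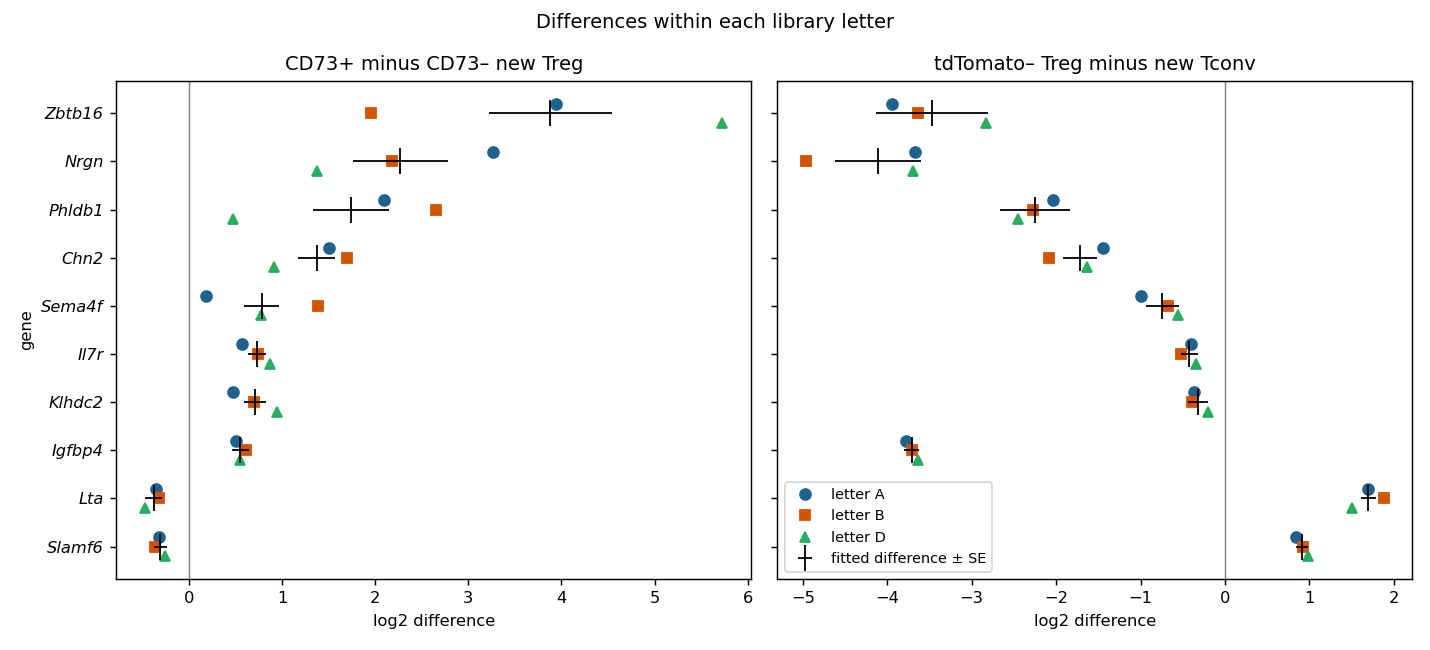
Log2 difference of each gene within each library letter (points) with the fitted difference ± SE (cross), for the first comparison on the left and the second on the right. In each panel all points of a gene lie on the same side of 0, which follows from groups that do not overlap. The widest spread between letters is that of Zbtb16 in the first comparison (1.96 to 5.73).

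The 3 genes with the largest first differences are also those with the fewest counts. A log2 CPM of at least 0 was reached by Zbtb16 in 7 libraries, by Nrgn in 6 and by Phldb1 in 8, and by the other 7 genes in all 12. All 10 passed the filter on low values, these 3 through the groups in which they are high. On the log2(CPM + 1) scale the first difference was 1.34 for Zbtb16, 1.10 for Nrgn and 0.62 for Phldb1.

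Over the 10 lists together 150 of 185 distinct partner genes were tested. In the first comparison 5 passed the threshold, which is 3.33%, all of them higher in CD73+ Treg, with 35 at an unadjusted p under 0.05; with the letter as a replicate block 12 passed, 7 higher and 5 lower, beside 5.64% of all genes. In the second comparison 109 passed, which is 72.7%, with 62 higher and 47 lower in tdTomato– Treg. The shares over all tested genes were 2.44% and 52.1%, so the first lies near the background. No partner gene passed both with opposite signs, which over all genes was the case for 0.251%, too small a share to read a count of 0 among 150 genes. With the replicate block, under which 0.922% of all genes were opposed, 2 partners were: Runx3 (0.50, adjusted p = 0.018, and −0.62, adjusted p = 0.00018) and Dock2 (−0.14, adjusted p = 0.033, and 0.40, adjusted p = 3.4e-08), both named after their values were seen.

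**Figure D3:**
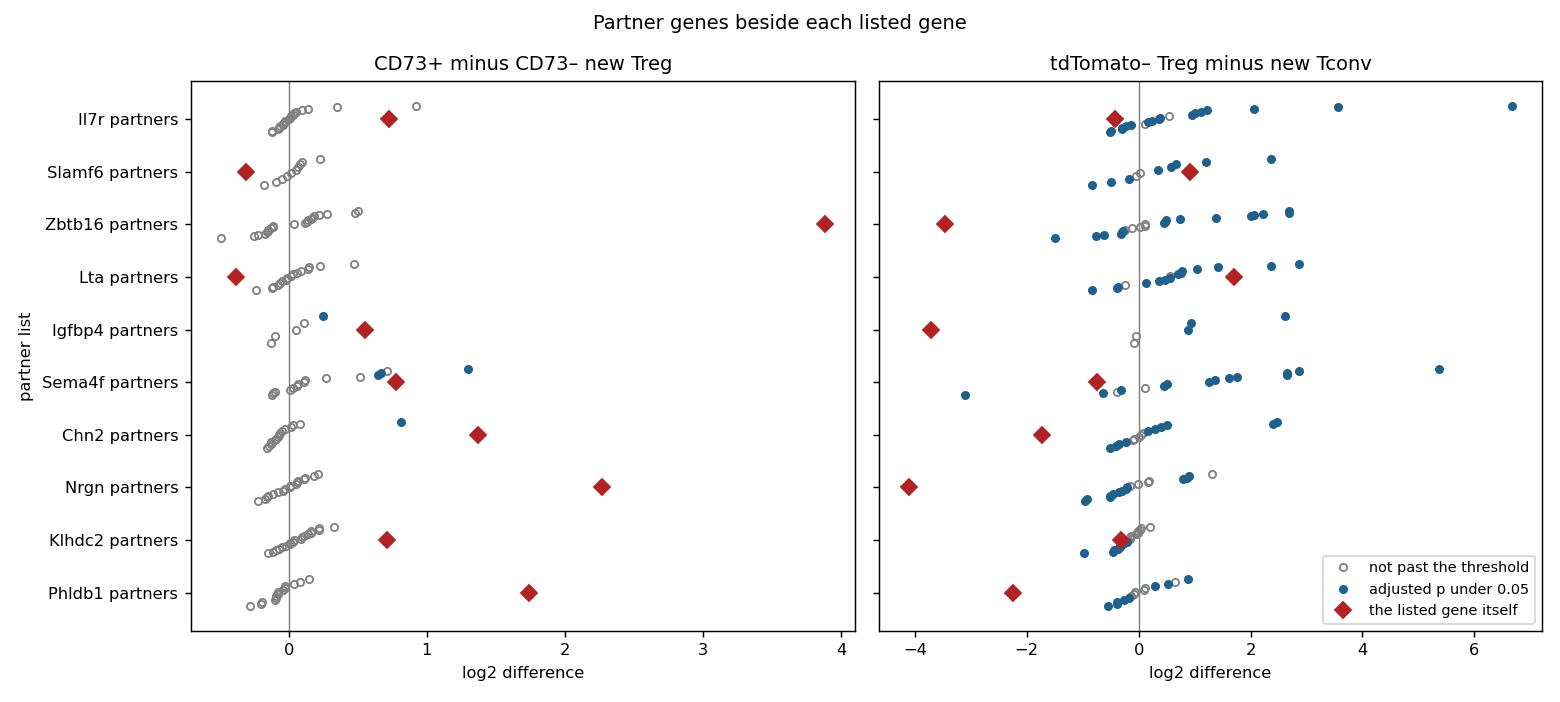
Log2 difference of each tested partner gene (circles, filled where the adjusted p is under 0.05) by list, beside the listed gene itself (diamond), for both comparisons. In the first comparison most circles lie near 0 and 5 distinct genes are filled, whereas in the second 109 are filled on both sides of 0.

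The 10 genes are not neighbours of each other. Of the 20 genes with values that lie nearest on either side, none passed the threshold in both comparisons with opposite signs, a count that the share of 0.251% over all genes leaves uninformative. Zbtb16, Nrgn and Phldb1 lie on chromosome 9, the others on different chromosomes except for Chn2 and Sema4f on chromosome 6. Top2a, a replication gene 17055 bp from Igfbp4, differed by 0.57 (SE 0.21, adjusted p = 0.18) and −1.98 (SE 0.21, adjusted p = 7.3e-07). Arcn1, 6366 bp from Phldb1, differed by −0.09 (SE 0.05, adjusted p = 0.40) and −0.25 (SE 0.05, adjusted p = 0.00065).

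Across the 12 libraries, after subtraction of each table's mean, the members varied together to unequal degrees. These correlations describe libraries that share the 4 group means for which the genes were selected. Nrgn and Chn2 had a Pearson r of 0.965, Phldb1 and Chn2 0.960, Zbtb16 and Il7r 0.943, and Lta and Slamf6 0.975. Among the 8 genes of the larger set the lowest was 0.498, between Klhdc2 and Igfbp4. Igfbp4 and Lta ran opposite to each other at −0.987.

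The genes most like each member by this measure differed in kind. For Zbtb16 they were Ube2c (0.951), Chmp4b (0.941) and the histone gene Hist1h2ab (0.936), and for Nrgn they were Cdca5 (0.961), Kif18b (0.958) and Neil3 (0.958); Ube2c, Cdca5 and Kif18b act in cell division. For Il7r they were Chmp4b (0.984), Psmd8 (0.940) and the replication licensing inhibitor Gmnn (0.934). Chn2 was most like Sox5 (0.947), Actb (0.940) and Zfp507 (0.939), and Phldb1 most like Actb (0.940), Snrnp40 (0.931) and Naa40 (0.920). Sema4f was most like Ube2e2 (0.924), Mdn1 (0.911) and Nipa2 (0.910), and Klhdc2 most like Gars (0.923), Gfer (0.906) and Wdr18 (0.897). Igfbp4 was most like Polr1a (0.994), Ppp2r5a (0.990) and Ckb (0.989). A high r does not mean differences of like size. Polr1a differed by 0.05 and −0.58 and Ckb by 0.37 and −2.59, beside 0.55 and −3.71 for Igfbp4. Actb differed by 0.17 and −0.19, beside 1.74 and −2.25 for Phldb1. Lta was most like Fam169b (0.987), Myo1h (0.987) and Gm3558 (0.986), and Slamf6 most like Gfod1 (0.993), Gimap3 (0.984) and Myo1h (0.983).

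**Figure D4:**
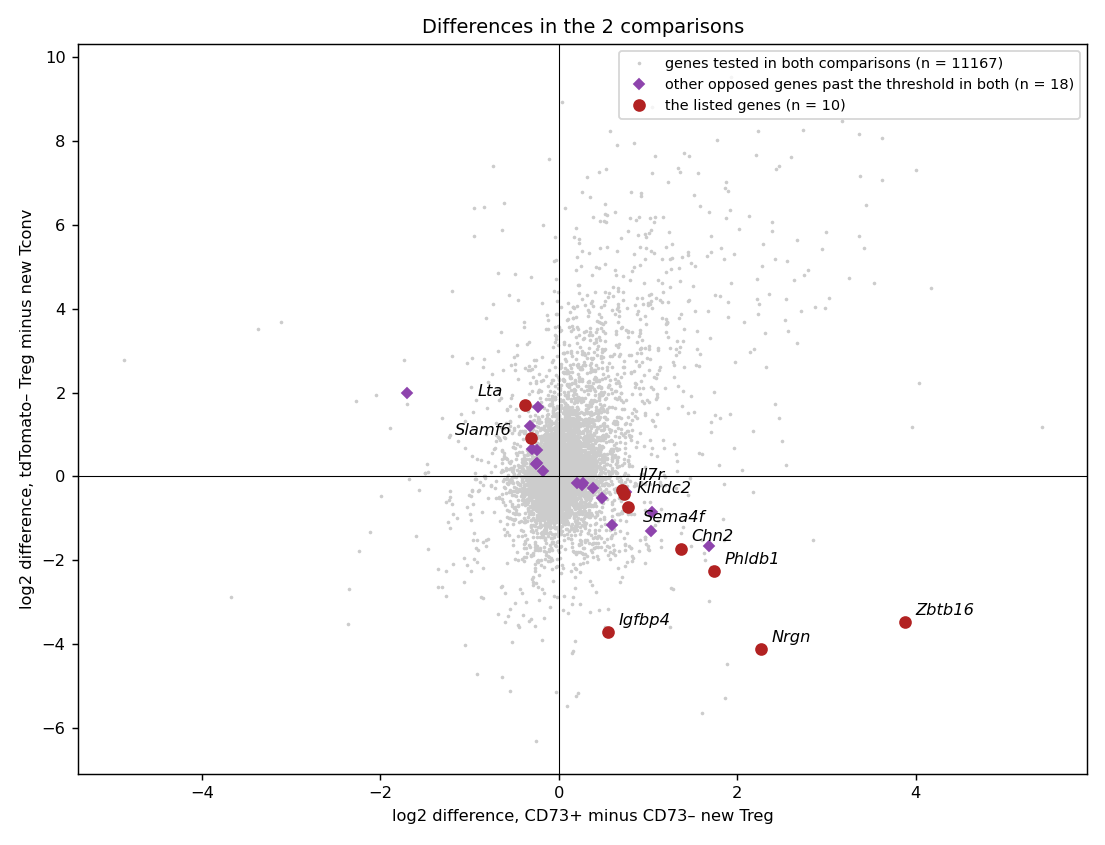
Log2 difference in the first comparison (x axis) against that in the second (y axis) for 11167 genes tested in both (grey), the 18 other opposed genes past the threshold in both (diamonds) and the 10 listed genes (circles, named). There are 8 named genes at the lower right, with Zbtb16 and Nrgn farthest out, and Lta and Slamf6 in the upper left.

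Markers of other cell types were measured beside these differences. Of 9 tested genes of CD8 and double-positive thymocytes, 1 was lower in CD73+ than in CD73– Treg, the water channel gene Aqp11 (−1.0, SE 0.23, adjusted p = 0.033), and in the second comparison 3 were higher and 3 lower. With the replicate block Rag1, named after its values were seen, was lower too (−1.31, adjusted p = 0.026) and Runx3 higher, and Rag1 was opposed in the second comparison (1.38, adjusted p = 0.0017). The summed level of that list was 60.8 to 64.5 CPM in CD73+ Treg, 101 to 118 in tdTomato– Treg and 118 to 132 in Tconv. In CD73– Treg it was 66.0 to 136 CPM, the highest value being that of library B. Without that library the first difference was 0.84 for Il7r, 0.74 for Klhdc2, 0.56 for Igfbp4 and 0.56 for Sema4f, and −0.45 for Lta and −0.36 for Slamf6. It was 2.50 for Nrgn, 1.39 for Phldb1 and 1.28 for Chn2. Myeloid and dendritic cell markers, with 9 tested, gave none past the threshold by limma in the first comparison (1 at an unadjusted p under 0.05, and 1 past the threshold with the replicate block) and 5 higher and 1 lower in the second. Their summed level was 47.0 to 52.2 CPM in CD73+ Treg, 35.0 to 57.9 in CD73– Treg, 66.0 to 83.5 in tdTomato– Treg and 39.7 to 43.7 in Tconv. B cell markers summed to between 3.73 and 10.7 CPM in every library, with the highest values in tdTomato– Treg; of 2 tested, none passed in the first comparison and 1 was higher in the second. Xcr1, a dendritic cell marker, was at or under the limit of 3 counts in every CD73– library. The part of these cells in the differences of the 10 genes was not tested.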

How the data were processed

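RNA from 12 sorted samples was sequenced by the authors with the KAPA RNA HyperPrep kit after TRIzol extraction, per the labels' protocols. STAR, RSEM, limma and mm10 are named in the submitters' processing notes; their versions are not given in the sources used here. Each of 2 tables of log2 values deposited by the authors holds 6 libraries, filtered and scaled apart from the other, and 12410 genes are in both. The unit, log2 CPM with an offset of 0.5 count, was read from the values: 115 to 485 genes share the lowest value of a library. Fold changes on the log2 scale and p-values, raw and adjusted, were deposited by the authors for each comparison.

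In R 4.3.3, limma 3.58.1 was used to fit 4 group means, with empirical Bayes moderation along an intensity trend, to genes that reached a log2 CPM of 0 in 3 or more libraries. Tests were two-sided, with Benjamini-Hochberg adjustment over every gene of a comparison and a threshold of 0.05. The procedure was tested on simulated data. The fit shares its spread over all 12 libraries. Counts behind a value were estimated from the lowest value of each library. No libraries were identical. Promoter sequences came from RefSeq and gene positions from GENCODE vM21.

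The members, the 10 partner lists, the 5 marker lists and the rules were chosen with earlier results of these data known. Besides the members, the rule for named genes takes the 3 genes most correlated with each member, up to 5 other opposed genes per direction, up to 2 genes per list, direction and comparison by p-value, and Foxp3, Nt5e and Cd4; a few genes that it takes are not reported here. Markers of T cells and Treg were all past the threshold in the second comparison, 5 higher and 3 lower in tdTomato– Treg, and none was in the first by limma (1 at an unadjusted p under 0.05).

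Whether letters pair libraries was checked on 9942 genes by the correlation of deviations from group means. It was 0.146 to 0.266 for libraries of the same letter between CD73+ and CD73– Treg, beside −0.228 to 0.00823 for different letters. The letters were therefore taken to pair these groups. Between tdTomato– Treg and Tconv it was 0.0536 to 0.117, beside −0.141 to 0.0652. These ranges overlap, and no pairing was taken there. Tconv libraries still varied with the letter, at 0.129 to 0.354 with CD73– Treg, beside −0.259 to 0.0792. The main fit leaves the pairing out, so its calls in the first comparison are unpaired. Alternatives were other filters, scalings and offsets, a replicate block, no trend, 6 libraries alone, and leaving out each library or letter D.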

Additional observations from a re-analysis of the deposited data

How the results depend on the processing

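No member changed sign in either comparison: of 400 values, 20 differences under 20 alternatives each, 391 moved by less than 1 SD between replicates and 9 by more. Many of the 400 could not move. Filters, the fit of 6 libraries alone, the replicate block and leaving out a library of the other comparison leave a difference unchanged by design. The signs were also used to select the members, so no stability is read from these counts. The 9 were the log2(CPM + 1) scale for Zbtb16, Nrgn and Phldb1 (second differences −2.34, −2.70 and −1.73) and, in the second comparison, quantile normalisation for Zbtb16 (−4.00), Phldb1 (−2.72) and Chn2 (−1.90). Counts of calls in the first comparison depended on the design. The 273 genes past the threshold became 146 with only the 6 libraries of the comparison, 107 without an intensity trend, 46 without the 4 libraries of letter D and 630 with the letter as a replicate block (371 higher, 259 lower). Leaving out a single library gave 95 to 392, and the count fell by over 1.5 times without library A or B of CD73+ Treg, A or D of CD73– Treg, or A or B of tdTomato– Treg. Among calls of the first comparison the split of 200 higher and 73 lower became 98 and 9 without a trend, 85 and 14 without library A and 79 and 16 without library B of CD73+ Treg, and 111 and 16 without library D of CD73– Treg. The 28 genes opposed and past the threshold in both became 17, 9, 3 and 103 under the same 4 settings and 11 to 64 with a library left out, and 355 when counted by groups that do not overlap. The 5 partner genes past the threshold in the first comparison became 3 with only the 6 libraries, 3 without letter D, 12 with the replicate block and 3 to 6 with a library left out. In the second comparison, counts over all genes (5834) and over partners (109) stayed within 1.5 times under every alternative, and the replicate block gave 6230 and 115. No called partner changed sign, and 92 of the 109 calls, but 2 of the 5, held in every alternative. The cause of these shifts was not tested, beyond the fewer libraries that some settings use. Depth limits Zbtb16, Nrgn and Phldb1, which had 11, 23 and 13 counts over the 3 libraries of CD73– Treg.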

Other observations

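The other 18 genes past the threshold in both comparisons with opposite signs, by limma with Benjamini-Hochberg adjustment, were 10 higher in CD73+ Treg and lower in tdTomato– Treg than in Tconv, and 8 the reverse. Like the members, they were chosen by these contrasts, so their values are a description. Among them are 6 histone genes, whose near-identical copies make single values uncertain: Hist1h2ab (1.03 and −1.30 in the first and second comparison), Hist2h3b (1.05 and −0.86), Hist1h4f (0.60 and −1.15), Hist1h3f (0.49 and −0.51), Hist1h4m (0.75 and −0.38) and Hist1h4d (0.38 and −0.28). Ube2c, which encodes a ubiquitin-conjugating enzyme of mitosis, differed by 1.68 (SE 0.40) and −1.67 (SE 0.40). In the reverse direction, Prrt2, known from synapses, differed by −1.70 (SE 0.34) and 1.98 (SE 0.34), and Arhgap20 by −0.32 (SE 0.07) and 1.20 (SE 0.07). Gabbr1, a subunit of the GABA-B receptor, differed by −0.30 and 0.65, and Dennd1c by −0.24 and 0.33.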
